A study of Mus musculus with 16 samples.

Results

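The genes described here are the nuclear genes of mitochondrial oxidative phosphorylation in mouse proximal colon mucosa, 93 of the 30702 genes tested. They were taken by symbol, as every row of the array table with a single platform gene symbol that names a subunit of NADH dehydrogenase (complex I, 43 genes), succinate dehydrogenase (complex II, 4), the cytochrome bc1 complex (complex III, 8), cytochrome c oxidase (complex IV, 18) or ATP synthase (complex V, 20). Where a gene had several rows, as Atp5d, Atp5g2 and Atp5l did, the row with the highest mean was used. The symbols also take in 9 assembly factors, 8 isoforms known mainly from other tissues or states and 4 gene copies or pseudogenes, which leaves 20 core subunits and 52 supernumerary (accessory) subunits. Some placements follow old names only. Ndufa4, named as a complex I subunit, is now assigned to cytochrome c oxidase, and Dmac2, listed on the platform as Atp5sl and so counted with complex V, is known as an assembly factor of the membrane arm of complex I.

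All 16 samples came from male C57BL/6J mice that carried floxed Mcc alleles on both chromosomes. The gene's name stands for mutated in colorectal cancers. The 9 wild type (WT) samples were Mccf/f siblings without Cre, and the 7 knockout (KO) samples were VILcreMccf/f, in which a Villin-cre transgene deletes Mcc in intestinal epithelium and not in the other cells of the mucosa. From 6 weeks of age the mice ate control feed or feed with 320 ppm of sulindac for 10 weeks, a drug that inhibits cyclooxygenases. From sulindac-fed mice only inflamed areas of the mucosa were taken, called lesions here, and from control-fed mice the matching normal mucosa, which gave 6 WT control, 3 WT lesion, 3 KO control and 4 KO lesion arrays. No label states that samples came from separate animals, so p-values measure the spread between these samples, and the number of arrays limits the precision. No uninflamed tissue of sulindac-fed mice was analysed here, so drug and inflammation cannot be told apart. The comparisons ask how lesions differ from control mucosa in each genotype and how the genotypes differ on each diet.

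Oxidative phosphorylation passes electrons from NADH and succinate through complexes I to IV to oxygen, pumps protons out of the mitochondrial matrix on the way, and uses their return through complex V to make ATP. All complexes but II combine subunits encoded in the nucleus with a few encoded in mitochondrial DNA, so their amounts depend on both genomes. Absorptive colonocytes are known for a high demand on this pathway, which burns butyrate from the gut bacteria, while neutrophils rely mostly on glycolysis.

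Expression is given as log2 values after RMA, which corrects background, puts all arrays on one distribution and summarises the probes of a gene, and a gene was called where the limma adjusted p was under 0.05. Every group mean of 89 of the 93 genes lay above 5.05, the highest array median. Mcc itself was at 7.06 to 7.40 on the 9 WT arrays and at 6.39 to 6.71 on the 7 KO arrays, with no overlap, a KO minus WT difference of -0.60 on the control diet (SE 0.08, adjusted p = 0.083) and -0.79 in lesions (SE 0.09, adjusted p = 0.0032). The number at the end of each sample description falls into a lower or a higher series with a wide gap between them, and the meaning of the numbers is not stated. The 6 WT controls divide evenly, 3 to a series, while the KO controls all carry higher numbers and the lesions of both genotypes lower ones. The KO lesion response therefore cannot be told apart from the number series, whereas KO and WT lesions share a series.

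In KO lesions 54 of the 93 genes were called lower than in KO controls and none higher, including all 4 genes of complex II, all 8 of complex III, 28 of 43 of complex I, 8 of 20 of complex V and 6 of 18 of complex IV. The median change was -0.42 on the log2 scale, which is 74.9% of the control level, against 0.01 over all genes. Of all genes tested, 12.1% were called lower and 8.99% higher in this comparison. The arrays of the groups were apart, with every KO lesion array below every KO control array, for 61 of the 93 genes, against 14.4% of all genes. In WT lesions only 7 of the 93 genes were called lower and none higher, with a median of -0.11 against -0.06 over all genes, where 8.37% of all genes were called lower and 6.98% higher. WT arrays were apart in the lower direction for 8 genes, against 11.6% of all genes. Of the called genes, 6 were lower in both genotypes, 48 in KO lesions alone and 1, Cox4i1, in WT lesions alone. These are bulk samples, so fewer cells of a type and less RNA per cell cannot be told apart.

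The array values of these genes were also compared between the number series. As a term in the limma fit, the series was called for none of the 93 genes and for 1 gene in all, while its unadjusted p was under 0.05 for 46 of the 93 and for 10.2% of all genes. Taking the median over the 93 genes of the difference from the WT control mean, the 3 WT controls of the lower series were at -0.17, -0.12 and -0.05 and the 3 of the higher series at 0.10, 0.11 and 0.14. WT lesions were at -0.17, -0.15 and -0.04, over nearly the same range as the lower-series WT controls. KO controls, all of the higher series, were at -0.12, 0.07 and 0.10. KO lesions were at -0.48, -0.43, -0.34 and -0.25, below every other array. The same median over all genes was between -0.09 and 0.04 on every array. RMA puts all arrays on one distribution, so the processing itself keeps this all-gene median near 0. Between the series within WT controls, 59 of the 93 genes had arrays apart and lower in the lower series (63.4%), against 9.11% of all genes, and the median difference was -0.25. Set against the lower-series WT controls alone, WT lesions had a median difference of -0.01 with 10 genes apart and lower (10.8%, against 20.2% of all genes), and KO lesions one of -0.25 with 45 genes apart and lower (48.4%, against 14.3% of all genes).

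**Figure D1:**
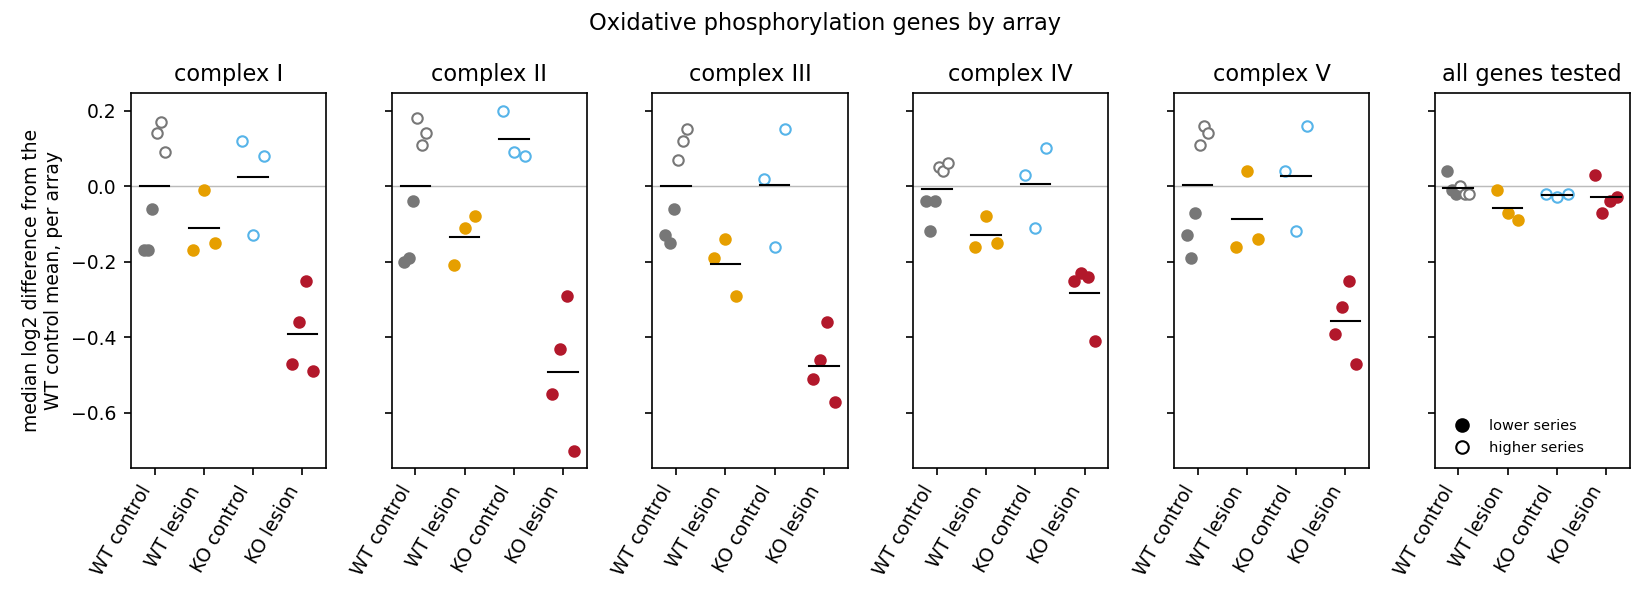
Median over the genes of each complex, and over all genes tested, of the log2 difference from the WT control mean, 1 point per array by group, with the group mean as a bar; filled points are of the lower number series and open points of the higher. In complexes I to V the 4 KO lesion arrays lie lowest, and within WT controls the filled points lie below the open ones. All genes together lie near 0, where RMA keeps them by putting all arrays on one distribution.

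The count in KO lesions depends on how the series enters the fit. With the series as a random block, 40 of the 93 genes were called lower, all among the 54, with a median of -0.38, against 9.83% of all genes. As a covariate, where the WT controls alone estimate it, 3 were called lower against 3.66% of all genes, and the median was -0.17. These 3 were Dmac2 (-0.69, SE 0.10, adjusted p = 0.000845), Sdha (-0.54, SE 0.10, adjusted p = 0.00282) and Sdhb (-0.48, SE 0.12, adjusted p = 0.0214). Leaving out KO control replicate 1 lowered the count to 27. The WT count of 7 became 2 without WT lesion replicate 3 and 4 without WT lesion replicate 2 or WT control replicate 5. For fits without single arrays the share of all genes called was not counted. Within the lower series, the WT lesion fit called 1 of the 93 genes lower, Dmac2 (-0.42), against 4.56% of all genes. It called 2 higher, Ndufb6 (0.44) and Ndufs4 (0.31), against 5.17% of all genes.

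To show the upstream regions of these genes, the 250 bases before each gene start and the 50 after it were read from RefSeq promoters (GRCm38.p6) for 74 of the 93 genes. The letters GCGCANGCG, the motif of nuclear respiratory factor 1 (NRF1), a known activator of respiratory genes, occurred on either strand in 19 of the 74 (25.7%) and in 6.47% of all 27025 promoters. The core CCGGAAG of ETS factors, the family of GABP (nuclear respiratory factor 2), occurred in 17 (23.0%) and in 9.12% of all, and 6 genes held both. The site TNAAGGTCA of estrogen-related receptors occurred in 2 (2.7%) and in 1.26% of all. Genes with NRF1 letters were called lower in KO lesions in 11 of 19 cases and those without in 35 of 55, with a median change of -0.42 in both. For ETS letters the counts were 11 of 17 with and 35 of 57 without, with medians of -0.44 and -0.42. Of all genes tested, 12.1% were called lower in KO lesions. For each complex, the window of the gene with the largest fall among called genes that hold NRF1 or ETS letters upstream of the start is printed 5′ to 3′ on the gene's strand, with those letters in capitals. All 5 genes lie on the minus strand. A match is a description of the letters, not a site.
Ndufaf1 (complex I assembly factor, ETS letters, chr2:119662835-119662877): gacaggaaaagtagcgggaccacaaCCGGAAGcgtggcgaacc
Sdhd (complex II, NRF1 and ETS letters, chr9:50603864-50603953): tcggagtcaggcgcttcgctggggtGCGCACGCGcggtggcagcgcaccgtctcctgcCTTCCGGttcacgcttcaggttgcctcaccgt
Uqcrh (complex III, ETS letters, chr4:116075071-116075105): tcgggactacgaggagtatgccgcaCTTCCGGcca
Cox6b1 (complex IV, ETS letters, chr7:30626115-30626167): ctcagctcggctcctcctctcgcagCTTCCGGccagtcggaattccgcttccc
Atp5g2 (complex V, NRF1 letters, chr15:102671055-102671114): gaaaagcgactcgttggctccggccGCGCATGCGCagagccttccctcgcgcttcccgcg

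**Figure D2:**
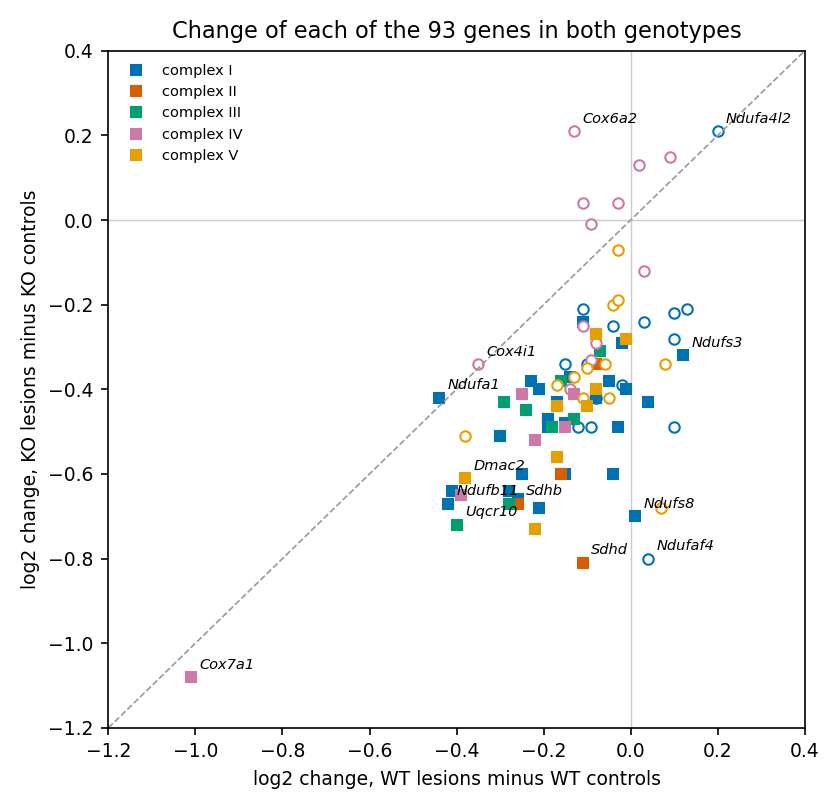
Log2 change of each of the 93 genes in WT lesions (x axis) and KO lesions (y axis) against the controls of the same genotype, coloured by complex; filled squares were called lower in KO lesions, open circles were not, and the dashed line marks equal change. Points lie below the line for 84 of the 93 genes, and Cox7a1 stands lowest on both axes.

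Complex I takes electrons from NADH. Its 6 measured core subunits, which carry the flavin and iron-sulfur centres of the matrix arm or hold them in place, were all called lower in KO lesions. Ndufs8, which binds 2 iron-sulfur clusters, read 10.26, 9.94 and 9.93 in the 3 KO controls against 9.27, 9.41, 9.63 and 9.06 in the 4 KO lesions, so the groups did not overlap. It fell by 0.70 (SE 0.19, adjusted p = 0.0163), to 61.6% of the control level. In WT lesions it read 9.67, 9.99 and 9.94, inside the WT control range of 9.32 to 10.25 (median 9.92). Ndufs7 fell by 0.60 (SE 0.14), Ndufs1, the largest subunit of the matrix arm, by 0.49 (SE 0.10), Ndufv2 by 0.48 (SE 0.13), Ndufv1, the flavoprotein that binds NADH, by 0.37 (SE 0.08) and Ndufs3 by 0.32 (SE 0.08), with adjusted p from 0.00173 to 0.0163. None of the 6 was called in WT lesions, where their changes lay between -0.19 and 0.12.

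Of the 28 supernumerary subunits of complex I, 16 were called lower in KO lesions and 2 in WT lesions, and all 28 were below 0 in KO lesions. Ndufa9, at the joint of the matrix and membrane arms, read 9.62, 9.45 and 9.50 in the 3 KO controls against 8.80, 8.82, 9.04 and 8.72 in the 4 KO lesions, a fall of 0.68 without overlap (SE 0.13, adjusted p = 0.000993). Ndufb11, in the membrane arm, fell in both genotypes. It read 8.34, 8.13 and 8.42 in the 3 KO controls against 7.70, 7.59, 7.72 and 7.51 in the 4 KO lesions (-0.67, SE 0.11, adjusted p = 0.000405). In WT it went from 8.11 to 8.58 in controls (median 8.30) to 8.07, 7.83 and 7.80 in lesions (-0.42, SE 0.10, adjusted p = 0.00979), again without overlap. Ndufa1, another membrane arm subunit, changed by -0.44 in WT (SE 0.13, adjusted p = 0.0294) and -0.42 in KO lesions (SE 0.14, adjusted p = 0.0414), and its KO control of 7.67 lay under a KO lesion at 7.72. Ndufab1, the mitochondrial acyl carrier protein, fell by 0.49 in KO lesions (SE 0.14, adjusted p = 0.0239). Ndufa4 (-0.24), Ndufs4 (-0.21), Ndufs5 (-0.21), Ndufb6 (-0.28) and Ndufc1 (-0.25) were among the 12 not called. Ndufb4b, a copy of Ndufb4, was called lower (-0.66, SE 0.18, adjusted p = 0.0169), and as near-identical copies can share probes its level is uncertain.

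Among the complex I assembly factors Ndufaf1 to Ndufaf7, 5 were called lower in KO lesions, between -0.64 for Ndufaf7 and -0.24 for Ndufaf2. Ndufaf7, a methyltransferase of a core subunit, was also lower in WT lesions (-0.41, SE 0.12, adjusted p = 0.0232). It read 6.99, 7.20 and 7.21 there against 7.37 to 7.64 in WT controls, and 6.56, 7.02, 7.22 and 6.90 in KO lesions. Ndufaf1 and Ndufaf5 both fell by 0.60 and Ndufaf3 by 0.43, while Ndufaf6 was at -0.39 and not called. Ndufaf4 had the lowest estimate of complex I in KO lesions (-0.80, SE 0.31, adjusted p = 0.0865) but was not called. Its 4 KO lesions spread from 6.02 to 7.84, and the highest lay above 2 of the 3 KO controls.
Dmac2 had the lowest adjusted p of the 93 genes in both responses. It read 6.91, 6.91 and 6.92 in the 3 KO controls against 6.27, 6.38, 6.40 and 6.16 in the 4 KO lesions (-0.61, SE 0.07, adjusted p = 2.07e-05). In WT it read 6.50, 6.46 and 6.58 in lesions, below all 6 controls at 6.85 to 7.05 (-0.38, SE 0.07, adjusted p = 0.000777). Dmac2 was called lower in both genotypes with the series as a covariate as well, and in WT within the lower series.

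Complex II oxidises succinate and is also an enzyme of the citric acid cycle, and it is the only complex with no mitochondrially encoded subunit. All 4 subunits were called lower in KO lesions without overlap between the arrays, at a median of -0.63, which is 64.5% of the control level. None was called in WT lesions, at a median of -0.14. Sdhd, a membrane anchor that binds ubiquinone, read 10.42, 10.19 and 10.27 in the 3 KO controls against 9.26, 9.58, 9.77 and 9.33 in the 4 KO lesions. It fell by 0.81 (SE 0.15, adjusted p = 0.00111), to 57.0% of the control level, and in WT lesions it read 9.88, 10.04 and 10.03, within the control range of 9.74 to 10.43. Sdhb, the iron-sulfur subunit, read 9.10, 8.92 and 9.20 in the 3 KO controls against 8.43, 8.46, 8.45 and 8.29 in the 4 KO lesions (-0.67, SE 0.09, adjusted p = 8.25e-05). Its WT lesions at 8.84, 8.87 and 8.62 just overlapped the lowest WT control at 8.86 (-0.26, SE 0.08, adjusted p = 0.051). Sdhc, the other anchor, fell by 0.60 (SE 0.19, adjusted p = 0.0309). Sdha, the flavoprotein that oxidises succinate, read 9.39, 9.55 and 9.46 in the 3 KO controls against 9.0, 9.17, 9.23 and 9.11 in the 4 KO lesions (-0.34, SE 0.08, adjusted p = 0.00614). Unlike the other 3, Sdha was higher in the lower-series WT controls (mean 9.58) than in the higher-series ones (mean 9.37), and its KO change was larger with the series as a covariate.

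Complex III passes electrons from ubiquinol to cytochrome c. All 8 genes were called lower in KO lesions and none in WT lesions, with medians of -0.46 and -0.21, and the KO arrays did not overlap for 7 of the 8. Uqcr10, a small subunit, had the largest fall. It read 7.22, 6.71 and 7.42 in the 3 KO controls against 6.29, 6.41, 6.59 and 6.28 in the 4 KO lesions (-0.72, SE 0.18, adjusted p = 0.00743). Uqcrh, the hinge protein, fell by 0.67 (SE 0.18, adjusted p = 0.0128), with 1 KO lesion at 9.84 above a KO control at 9.76. The core proteins Uqcrc1 and Uqcrc2 fell by 0.47 (SE 0.13, adjusted p = 0.0208) and 0.49 (SE 0.13, adjusted p = 0.0104). Uqcrfs1, the Rieske iron-sulfur protein, read 9.15, 9.11 and 9.02 in the 3 KO controls against 8.62, 8.82, 8.70 and 8.70 in the 4 KO lesions (-0.38, SE 0.08, adjusted p = 0.00194).

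Complex IV reduces oxygen, and its catalytic centre is encoded in mitochondrial DNA, so its nuclear genes are structural and regulatory subunits, several of which exist as pairs of isoforms. Of the 10 common subunits, 4 were called lower in KO lesions, namely Cox5b, Cox8a, Cox6b1 and Cox6c, and 1, Cox4i1, in WT lesions. Cox5b, which binds zinc, read 10.09, 9.91 and 10.23 in the 3 KO controls against 9.66, 9.61, 9.53 and 9.39 in the 4 KO lesions (-0.52, SE 0.11, adjusted p = 0.00186). Cox4i1, the common form of subunit IV, was at -0.35 in WT (SE 0.11, adjusted p = 0.0472) and at -0.34 in KO lesions (SE 0.12, adjusted p = 0.0602) and the interaction was not called. Cox5a was at 0.03 in WT and -0.12 in KO lesions, Cox6a1 at -0.11 and -0.25 and Cox7b at -0.09 and -0.33, none called. Cox7a2l is known as a factor that can join complexes III and IV into supercomplexes, which were not measured here. Cox7a2l was called lower in both, by -0.39 in WT (SE 0.12, adjusted p = 0.0401) and -0.65 in KO lesions (SE 0.13, adjusted p = 0.00173).

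Cox7a1, the isoform of subunit VIIa known from heart and skeletal muscle, had the largest fall of all 93 genes in both genotypes. WT controls read 8.65 to 9.50 (median 9.17) and WT lesions 7.80, 8.51 and 8.05 (-1.01, SE 0.22, adjusted p = 0.00458). KO controls read 9.48, 8.81 and 9.37 and KO lesions 7.79, 8.49, 8.0 and 8.25 (-1.08, SE 0.24, adjusted p = 0.00348), which is 47.2% of the control level. Lesions of the genotypes overlapped, and controls and lesions did not overlap in either. Within the lower series the WT change was -0.75 (adjusted p = 0.0557). None of 8 skeletal muscle markers was called lower in either genotype, and their summed level was 8.70 to 8.78 in KO controls and 8.85 to 9.06 in KO lesions. For 3 of the 8 the mean over all arrays lay below 5.05. The part of muscle cells in the Cox7a1 values was not tested. The common partner Cox7a2 was at -0.14 in WT and -0.40 in KO lesions, neither called.

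The other 7 isoforms of restricted expression were not called in either genotype. Ndufa4l2, known as a target of hypoxia signalling, was at 0.20 in WT (SE 0.09, adjusted p = 0.132) and 0.21 in KO lesions (SE 0.09, adjusted p = 0.135), and all 4 KO lesions at 5.07 to 5.25 lay above the KO controls at 4.86 to 4.99. Cox4i2, the isoform known from lung and from low oxygen, was at 0.02 and 0.13. Cox6a2, the muscle form of subunit VIa, was at -0.13 in WT and 0.21 in KO lesions, and Cox6b2, Cox7b2, Cox8b and Cox8c lay between -0.11 and 0.15 in both. Ndufa4l2, Cox7b2, Cox8b and Cox8c are the 4 genes with a group mean under 5.05, where RMA compresses differences, so a change in them could be understated.

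Complex V makes ATP in its F1 head, turned by the c ring of the membrane part. In KO lesions 8 of its 20 genes were called lower and in WT lesions 1, Dmac2. The F1 subunits alpha (Atp5a1) and beta (Atp5b), where ATP is made, had small falls of 0.27 (SE 0.07, adjusted p = 0.0142) and 0.28 (SE 0.08, adjusted p = 0.0199) in KO lesions. Of the 3 genes that encode the same mature c subunit, Atp5g2 read 10.34, 10.14 and 10.48 in the 3 KO controls against 9.63, 9.56, 9.92 and 9.27 in the 4 KO lesions (-0.73, SE 0.15, adjusted p = 0.00215). Atp5g1 had a similar estimate with a wider spread and was not called (-0.68, SE 0.27, adjusted p = 0.0961), and Atp5g3 was at -0.34 (SE 0.13, adjusted p = 0.0714). Atp5o, the stalk subunit that ties head to membrane part, fell by 0.56 (SE 0.10, adjusted p = 0.000707), from 9.30, 9.10 and 9.46 to 8.78, 8.71, 8.77 and 8.66. Atp5pb, Atp5h and Atp5j2 were the other called genes, at -0.40 to -0.44. The 3 copies Atp5c1-ps, Atp5l-ps1 and Atp5l2-ps were not called.

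**Figure D3:**
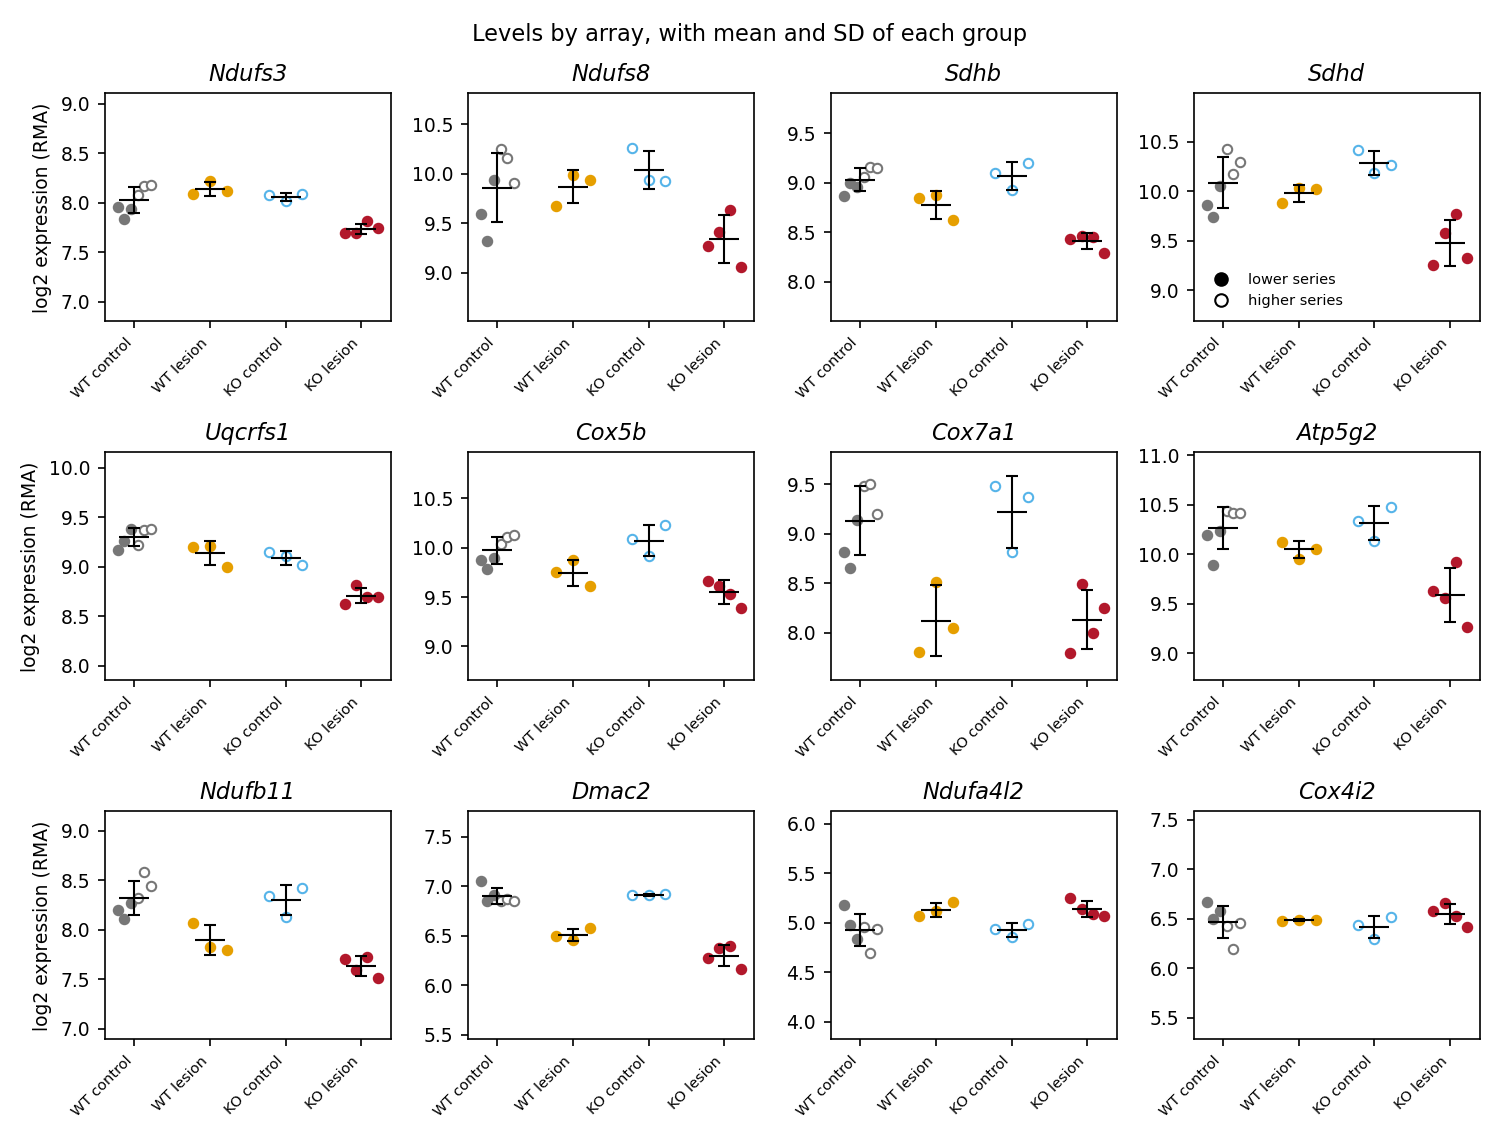
Log2 level of 12 named genes on each array by group, with mean and SD (6 WT controls, 3 WT lesions, 3 KO controls, 4 KO lesions); filled points are of the lower number series and open points of the higher, and every panel spans the same log2 range. Sdhb, Sdhd, Ndufs3 and Uqcrfs1 are lowest in KO lesions, Cox7a1 is low in lesions of both genotypes, and Ndufa4l2 and Cox4i2 do not fall.

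Between the genotypes on the control diet none of the 93 genes was called, and 0% of all 30702 genes was, while an unadjusted limma p was under 0.05 for 1 of the 93 and for 641 of all genes. The median difference was 0.02. It mixes the number series, since the KO controls are all of the higher series and the WT controls of both. With the series as a covariate the median was -0.08, again with none of the 93 genes called, and the KO controls had member medians of -0.12, 0.07 and 0.10 against 0.10, 0.11 and 0.14 in the higher-series WT controls. The lowest unadjusted p values belonged to Uqcrfs1 (-0.20, SE 0.07), Ndufa1 (-0.23, SE 0.13) and Cox7b2 (-0.18, SE 0.11). The 95% intervals of single genes reached -0.62 for Ndufaf4 and 0.87 for Atp5g1, so differences of that size in these genes lie within the intervals.

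In lesions, KO was below WT for 86 of the 93 genes, with a median difference of -0.25 against 0.04 over all genes. For 43 genes every KO lesion array lay below every WT lesion array, against 3.92% of all genes. These 43 included all 6 core subunits of complex I, 3 of 4 complex II genes, 11 of 20 of complex V, 2 of 8 of complex III and 1 of 18 of complex IV. After adjustment 2 genes were called lower and none higher, where 0.0586% of all genes were called lower and 0.248% higher. Ndufs3 read 8.09, 8.22 and 8.12 in WT lesions and 7.70, 7.70, 7.82 and 7.75 in KO lesions (-0.40, 95% interval -0.57 to -0.23, adjusted p = 0.0495). Uqcrfs1 read 9.20, 9.21 and 9.0 in WT lesions and 8.62, 8.82, 8.70 and 8.70 in KO lesions (-0.43, 95% interval -0.59 to -0.26, adjusted p = 0.0363). Ndufb5 came next, at 7.17, 7.13 and 7.15 against 6.73, 6.75, 6.93 and 6.74, and was not called (-0.36, SE 0.08, adjusted p = 0.0952).

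No label states that replicate numbers link these 2 groups, but deviations of same-numbered KO and WT lesion arrays correlated at 0.296 to 0.54 over 3 pairs. A block for the number was fitted over all 16 arrays, so it is not a paired test of the lesions alone. It also covers KO controls, whose deviations correlated with those of KO lesions at -0.3 to -0.145. With this block none of the 93 genes was called and 0% of all genes was called lower, while the median stayed at -0.26. The adjusted p of Ndufs3 was then 0.112 and that of Uqcrfs1 0.167. Leaving out single arrays, none was called in 13 of 16 fits, 1 without WT control replicate 1 or KO control replicate 3, and 13 without KO lesion replicate 3. That array had the highest member median of the KO lesions, at -0.25. The share of all genes called was not counted in the fits without single arrays, so these counts lack that background.

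The difference between the 2 responses, tested as an interaction of genotype and diet, was not called for any of the 93 genes, and 0.00326% of all genes was called. An unadjusted p was under 0.05 for 26 of the 93, against 11.1% of all genes. The KO change was below the WT change for 84 genes, at a median of -0.27 against 0.06 over all genes. With the series as a covariate the median was -0.16, against 0.04 over all genes. An unadjusted limma p was then under 0.05 for 10 of the 93. Of these, 9 had a negative interaction, against 2.37% of all genes with such a p and a negative interaction. The lowest p values belonged to Ndufs3 (-0.44, SE 0.11, adjusted p = 0.39), Sdhd (-0.70, SE 0.21, adjusted p = 0.396) and Sdhb (-0.41, SE 0.12, adjusted p = 0.406). The counts of 54 and 7 called genes are therefore not a tested difference for any single gene, and the interaction shares the confounding of the KO response with the series.

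The rest of the pathway was described by 6 lists of other genes. As background for their counts, 12.1% of all genes were called lower and 8.99% higher in KO lesions. In WT lesions these shares were 8.37% and 6.98%. The first held the subunits encoded in mitochondrial DNA. Of 13 listed, 5 were matched, none was lower in either genotype, and 2 were higher in KO lesions, COX1 (0.70, SE 0.20, adjusted p = 0.0202) and COX2 (0.32, SE 0.09, adjusted p = 0.0205), which encode catalytic subunits of complex IV. With the series as a covariate neither was called, at 0.65 (adjusted p = 0.268) and 0.30 (adjusted p = 0.267). ND2, ND3 and ND6 were at 0.45, 0.07 and 0.10 in KO lesions, none called.

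Of 38 assembly factors outside the symbol pattern, 31 were lower in KO lesions and 7 in WT lesions, none higher, with medians of -0.53 and -0.19. Cox10, which makes the heme of complex IV, fell by 0.93 in KO lesions (SE 0.20, adjusted p = 0.00324) and was at -0.13 in WT, not called. Coa3 (-0.92), Sdhaf4 (-0.76) and Atpaf1 (-0.75), for complexes IV, II and V, were lower in KO lesions and, at -0.48, -0.60 and -0.33, in WT lesions. Of 18 genes for electron carriers and coenzyme Q, 8 were lower and 2 higher in KO lesions and 3 lower and 3 higher in WT lesions. The coenzyme Q genes Coq9 (-0.54 in WT and -0.83 in KO lesions) and Coq10a (-0.73 and -0.80) were lower in both genotypes and Pdss2 was lower in KO lesions (-0.84). With the series as a covariate Coq10a was not called in KO lesions (adjusted p = 0.141). Coq8a was called lower in both genotypes with that covariate, at -0.85 in WT (adjusted p = 7.83e-06) and -0.80 in KO lesions (adjusted p = 0.000325). Coq10b was higher in KO lesions (0.82). In WT lesions it was called higher with the series as a covariate (0.54, adjusted p = 0.00996) or as a random block (0.48, adjusted p = 0.00801). Gpd2, the mitochondrial glycerol-3-phosphate dehydrogenase, was higher in both genotypes (0.55 and 0.78). Cycs, cytochrome c, was called higher in WT (0.43, SE 0.12, adjusted p = 0.0219) and was at 0.31 in KO lesions, not called.

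The citric acid cycle and pyruvate dehydrogenase list had 14 of 21 genes lower in KO lesions and 6 lower and 1 higher in WT lesions, led among the KO falls by Pdk2, a kinase that inhibits pyruvate dehydrogenase (-1.38 in WT and -1.31 in KO lesions), and by Idh3a of isocitrate dehydrogenase (-0.84 in KO lesions, and -0.18 in WT, not called). Pdk4, another such kinase, had the largest fall in WT lesions (-2.01, SE 0.52, adjusted p = 0.0146) and was at -0.84 in KO lesions (SE 0.56, adjusted p = 0.354). Of 21 regulators of mitochondrial biogenesis and transcription, 11 were lower in KO and 4 in WT lesions. Ppargc1a, the coactivator PGC-1 alpha, fell by 1.85 in KO (SE 0.34, adjusted p = 0.000907) and by 1.55 in WT lesions (SE 0.31, adjusted p = 0.00284), and was called in both with the series as a covariate (adjusted p = 0.0207 and 0.00855). Esrrg, an estrogen-related receptor, was lower in both, by -0.84 in WT (SE 0.09, adjusted p = 1.2e-05) and -0.73 in KO lesions (SE 0.09, adjusted p = 4.91e-05), and stayed called with the covariate (adjusted p = 0.000126 and 0.00439). Ppargc1b, a relative of Ppargc1a, was lower in KO lesions (-0.94) and called there with the covariate too (adjusted p = 0.0107). Tfb1m (-1.19) and Tfam (-0.74), which serve mitochondrial transcription, were lower in KO lesions but not with the covariate (adjusted p = 0.153 and 0.166). Nrf1 was at 0.03 in WT and -0.10 in KO lesions and Gabpa, of GABP, at 0.21 and 0.12, none called. Of 11 carriers, channels and uncoupling proteins, 3 were lower in KO lesions, among them Slc25a5, an ADP/ATP carrier (-0.40), and 1 was lower and 2 higher in WT lesions, among them the carrier Slc25a4 (0.70). With the series as a covariate, the KO counts of lower genes became 5 of 38, 3 of 18, 5 of 21, 5 of 21 and 1 of 11 for these 5 lists in the order given. In that fit 3.66% of all genes were called lower in KO lesions. No gene of the 6 lists was called between genotypes in lesions.

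**Figure D4:**
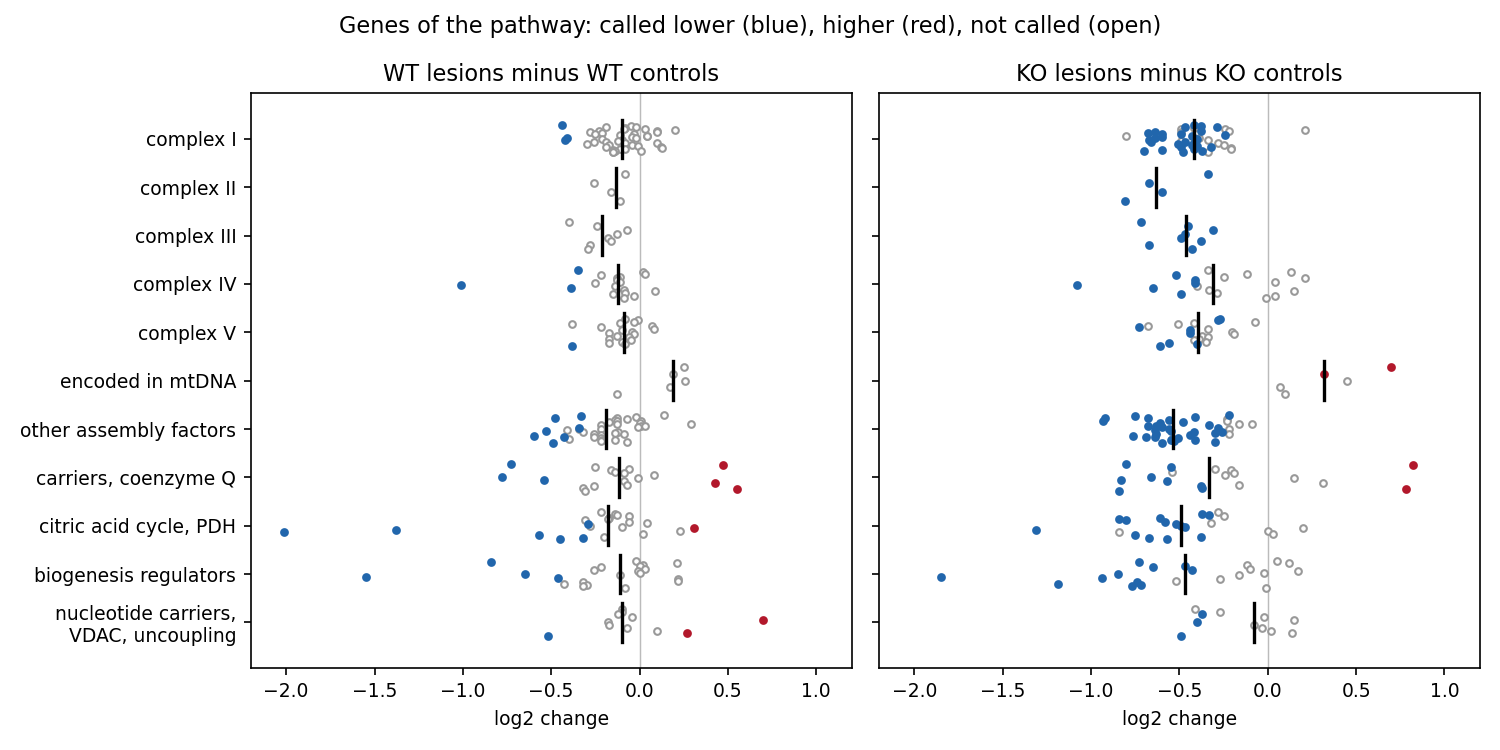
Log2 change in WT lesions (left) and KO lesions (right) of the 93 genes by complex and of 6 lists of other pathway genes, 1 point per gene; blue points were called lower, red points higher and open points were not called, and the bar is the median. Complexes I to V shift to lower values in KO lesions, the genes encoded in mitochondrial DNA do not, and the lowest biogenesis gene in both panels is Ppargc1a.

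Marker RNA of several cell types also differed between lesions and controls. Summed epithelial markers (12 of 12 matched) were not lower in lesions, at 14.98 to 15.13 in WT controls, 15.14 to 15.20 in WT lesions, 14.96 to 15.09 in KO controls and 15.20 to 15.40 in KO lesions, with 1 gene lower and 1 higher in WT and 2 lower and 6 higher in KO lesions. Absorptive colonocyte markers (9 of 10) had 3 lower and 1 higher in WT and 2 lower in KO lesions. Their summed level was 14.20 to 14.50 in WT controls and 13.67 to 14.27 in WT lesions, 14.33 to 14.51 in KO controls and 13.50 to 14.29 in KO lesions. Goblet cell markers (7 of 8) were lower for 5 genes in WT and 6 in KO lesions. Neutrophil markers (10 of 10) summed to 8.33 to 9.31 in WT controls, 8.51 to 9.27 in KO controls, 11.10 to 12.09 in WT lesions and 12.51 to 13.57 in KO lesions, and 3 of the 10 were called higher in KO than in WT lesions. Macrophage markers (10 of 10) were higher for 9 genes in WT and 10 in KO lesions, T and NK cell markers (10 of 10) for 6 and 7, fibroblast markers (7 of 8) for 6 in each and endothelial markers (8 of 8) for 2 and 3. No gene of the B and plasma cell, smooth muscle or adipocyte lists was called in either response, and 1 skeletal muscle marker was higher in KO lesions. The part of these cell types in the oxidative phosphorylation values was not tested.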

How the data were processed

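Mucosal RNA of 16 samples was measured on Affymetrix arrays. The deposited values are log2 expression made by the authors with RMA in Affymetrix Power Tools 1.16.1, per the submitters' processing notes; RMA compresses the changes of dim genes. The genome build is not given in the sources used here. Of 72688 rows, 31258 had 1 platform gene symbol; 1095 symbols were updated, and the highest-mean row per gene left 30702 genes. Array medians were 4.90 to 5.05.

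One limma fit (3.58.1, R 4.3.3) of 4 group means over 16 arrays gave all comparisons, two-sided, with Benjamini-Hochberg adjustment over all genes at 0.05. The fitting was tested on simulated data. Named genes were up to 3 largest called falls without overlap per complex and response, called or lowest-p genes of the other comparisons, listed core subunits, isoforms and assembly factors, and the largest called changes of each pathway list; any other was named after its values were seen. The members and lists were chosen with earlier results of these data known. Alternatives covered gene filters, centring, quantile normalization, array weights, the number series, a replicate block, Holm adjustment and leaving out each array. Replicate numbers from the labels were taken to pair KO with WT lesions (correlations of deviations 0.296 to 0.54 over 3 pairs) and no other groups. No label states such a pairing, and the block was fitted over all 16 arrays. Promoters came from RefSeq.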

Additional observations from a re-analysis of the deposited data

Results flagged for a closer look

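Within groups of 4 or 6 arrays, 9 of 186 gene and group pairs had 1 array set apart from the others of its group, and chance alone sets apart about 1 in 20. In WT controls these were replicate 1 for Cox7b2 (4.08, others 3.44 to 3.66), Cox8b (4.82, others 4.12 to 4.30) and Dmac2 (7.05, others 6.85 to 6.91), and replicate 2 for Cox8a (10.22, others 10.64 to 10.83). In KO lesions replicate 1 was high for Cox7a2 (9.68, others 9.36 to 9.41) and Atp5k (7.71, others 7.38 to 7.42), and replicate 3 for Ndufb5 (6.93, others 6.73 to 6.75). KO lesion replicate 4 was low for Cox6b1 (10.62, others 10.80 to 10.82) and Cox8b (3.80, others 4.41 to 4.52).

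For 5 genes every WT lesion array lay on one side of the WT control mean and every KO lesion array on the other side of the KO control mean. The share of all genes with this pattern was not counted, so these 5 lack that background. The KO change minus the WT change, tested as the interaction in limma, was -0.58 for Ndufa8 (adjusted p = 0.449), -0.44 for Ndufs3 (adjusted p = 0.39), -0.38 for Ndufb6 (adjusted p = 0.547), -0.34 for Ndufs4 (adjusted p = 0.46) and 0.34 for Cox6a2 (adjusted p = 0.406). None was called.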

How the results depend on the processing

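The control diet median of 0.02 turned to -0.08 with the series as a covariate and to -0.02 without KO control replicate 3. In WT lesions the medians of complex I (-0.10) and complex V (-0.09) turned to 0.02 with the series as a covariate. The interaction median of -0.27 was -0.16 with that covariate. For genes lower in KO lesions the count of 54 became 3 (median -0.17) with the number series as a covariate, against 3.66% of all genes. With Holm adjustment it became 1. Leaving out single arrays gave 27 (without KO control replicate 1) to 62 lower and 0 to 1 higher (1 without KO lesion replicate 2). For WT lesions, 7 lower and 0 higher became 16 and 1 with quantile normalization, 13 and 1 with array weights, 2 and 2 with the series as a covariate, 1 and 2 within the lower series, and 0 lower with Holm adjustment. Of all genes, 6.83% were lower and 6.6% higher in WT lesions with that covariate, and 4.56% and 5.17% within the lower series. Leaving out single arrays gave 2 to 8 lower and 0 to 1 higher (1 without WT control replicate 1). Between genotypes in lesions, 2 lower became 1 with every row tested or dim genes left out, 6 with array weights, and 0 with arrays centred, quantile normalization, trend and robust settings, only the 2 groups, the lower series alone or Holm adjustment, and 0 to 13 when single arrays were left out (13 without KO lesion replicate 3). The cause of these changes was not tested. For settings other than the number series and the replicate block, the share of all genes called was not counted. With the replicate block over all 16 arrays, genes lower in lesions numbered 2 in WT, 50 in KO and 0 between genotypes. Of all genes, 10.7% were lower in KO and 0% between genotypes with this block, and the share in WT was not counted. Only between the KO and WT lesions were the numbers taken to pair samples. The control diet median was then 0.12 and the interaction median -0.38. The block changed no other call count by over 1.5 times.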

Other observations

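Rows that name 2 genes were left out of the 93. Their lesion minus control differences were -0.15 in WT and -0.25 in KO for the row of Cox5b and Gm11273, -0.21 and -0.44 for Ndufb4 and Gm3244, -0.12 and -0.50 for Ndufa11 and Ndufa11b, and -0.12 and -0.49 for Gm10231 and Atp5g2. These rows were not tested.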
